A study of Homo sapiens with 31 samples.

Results

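The mRNAs described here encode 10 heat shock protein chaperones, taken by gene name. Each was looked up by its Ensembl transcript identifier and kept where the length deposited beside it lay within 5 codons of the protein's length minus 9. All 10 transcripts were found and all 10 matched that offset exactly, among 227264 transcripts listed for every library, of which 35500 remained when 1 transcript was kept per locus. All 10 passed the filter on low counts in each comparison below.

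Heat shock proteins bind unfolded or partly folded polypeptides and help them to fold, and many of their genes are switched on by heat and other stresses through heat shock factor 1. HSP70 proteins take up short exposed stretches in cycles of ATP hydrolysis driven by J-domain co-chaperones and nucleotide exchange factors, HSP90 proteins finish the maturation of kinases, receptors and other clients, and the HSP60 chaperonin encloses whole proteins in a chamber closed by its HSP10 lid. The endoplasmic reticulum and the mitochondria hold their own members of these families, and those of the endoplasmic reticulum are targets of the unfolded protein response.

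Of the cytosolic members, HSPA8 (ENST00000227378.7, chr11:123057489-123062462, minus strand) encodes the constitutive HSP70. HSPA1A (ENST00000375651.7, chr6:31815543-31817942, plus strand) encodes the stress-inducible HSP70. Its reads are uncertain, since the near-identical HSPA1B transcript, of the same counted length, had counts that ran in parallel with a total of 408549 over all libraries against 389094 for HSPA1A. HSPH1 (ENST00000320027.10, chr13:31134973-31162388, minus strand) encodes HSP110, a nucleotide exchange factor of HSP70. HSP90AA1 (ENST00000216281.12, chr14:102080742-102139749, minus strand) encodes the inducible HSP90 and HSP90AB1 (ENST00000353801.7, chr6:44246194-44253883, plus strand) the constitutive one.

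Of the organelle members, HSPA5 (ENST00000324460.7, chr9:125234853-125241343, minus strand) encodes BiP, the HSP70 of the endoplasmic reticulum, and HSP90B1 (ENST00000299767.10, chr12:103930410-103947926, plus strand) encodes its HSP90, GRP94. HSPA9 (ENST00000297185.9, chr5:138553756-138575401, minus strand) encodes mortalin, the mitochondrial HSP70. HSPD1 (ENST00000345042.6, chr2:197486584-197500274, minus strand) encodes HSP60 and HSPE1 (ENST00000233893.10, chr2:197500379-197503449, plus strand) encodes HSP10, from neighbouring genes read in opposite directions. Positions are those of the genes in RefSeq on GRCh38.p14.

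The study asked how the RNA helicase eIF4A1 acts with the RNA-binding protein LARP1 when mTORC1 is inhibited, in HEK293 T-REx, an established line of human kidney origin that expresses the tetracycline repressor. It comprised 31 libraries in 19 groups. Ribosome profiling, which sequences the mRNA fragments that ribosomes protect (footprints), covered naive cells and knockouts of either helicase gene (EIF4A1 KO, EIF4A2 KO). Per genotype there were 2 libraries from DMSO, 1 library at 1 µM and 1 at 10 µM of PP242, an inhibitor of the mTOR kinase, given for 30 min. RNA-seq covered naive and EIF4A1 KO cells (2 libraries each). RNA recovered on streptavidin beads from cells expressing eIF4A1 or eIF4A2 with a streptavidin-binding peptide (SBP-eIF4A1, SBP-eIF4A2) was sequenced beside its input (2 libraries each), and SBP-eIF4A1 cells were also treated for 72 h with a control siRNA (siControl, 2 input and 2 pulldown libraries) or a LARP1 siRNA (siLARP1, 2 inputs and 1 pulldown). How many clones stand behind each knockout and tagged line is not given in the labels, so each is treated as 1 line, and no pulldown from untagged cells was analysed here. Nothing in the labels says that libraries of a group came from separate cultures, so p-values measure only the spread between these libraries, which may be technical.

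Total counts per library over the transcripts kept ran from 2514696 to 6419990 in ribosome profiling, 11888561 to 17641316 in inputs and pulldowns and 19703718 to 21626987 in RNA-seq, and the members' own counts from 285 to 47165. The genes behind the labels were checked in every library, as CPM, the count as a share of the library, scaled up by a constant, after scaling by the trimmed mean of M-values (TMM). EIF4A1 mRNA was at 2057 and 2048 CPM in the naive RNA libraries and at 946 and 941 in EIF4A1 KO, and its DMSO footprints were at 2598 and 2675 CPM in naive cells and 507 and 597 in EIF4A1 KO cells. EIF4A2 footprints were at 160.5 and 131.8 CPM in naive cells, 61.4 and 62.7 in EIF4A2 KO cells, and 738 and 709 in EIF4A1 KO cells, so the paralog stood higher in the EIF4A1 KO libraries. LARP1 was at 229 and 219 CPM in the siControl inputs and at 94.7 and 76.8 in the siLARP1 inputs.

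1 library stood against its label in the levels of EIF4A1 and EIF4A2, though not in that of LARP1. The library labelled siLARP1 input replicate 2 held 1826 CPM of EIF4A1 and 1057 CPM of EIF4A2, next to the SBP-eIF4A2 inputs (1870 and 1919 CPM of EIF4A1, 997 and 1018 of EIF4A2). The other siRNA inputs held 3091 to 3748 CPM of EIF4A1 and 292.5 to 384 CPM of EIF4A2. LARP1 in this library, at 76.8 CPM, lay near the other siLARP1 input (94.7) and below the SBP-eIF4A2 inputs (231 and 215). Results that use this library are given with and without it.

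**Figure D1:**
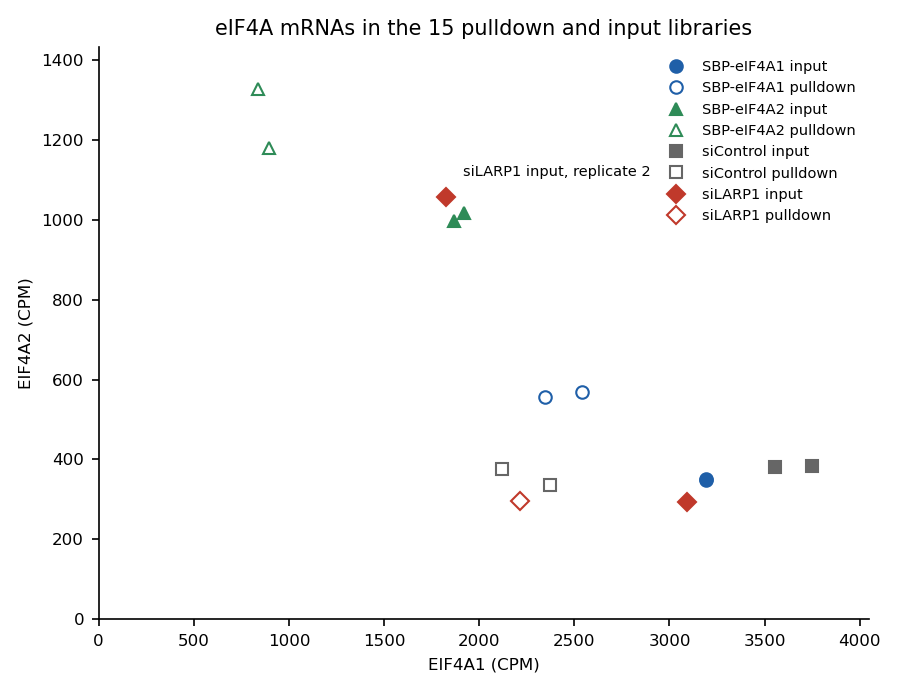
EIF4A1 against EIF4A2 level (CPM) in each of the 15 pulldown and input libraries, filled symbols for inputs and open ones for pulldowns. The library labelled siLARP1 input replicate 2 lies beside the SBP-eIF4A2 inputs, while siLARP1 input replicate 1 lies with the SBP-eIF4A1 and siControl inputs.

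Transcripts that mTORC1 controls most strongly begin with a C followed by a run of pyrimidines, the 5′ terminal oligopyrimidine (TOP) motif that LARP1 binds. The annotated starts of 2 members, HSPD1 and HSP90AB1, have such a run, here a C with at least 4 more pyrimidines after it, and HSPA8 has a shorter one. They are shown because these 3 mRNAs lost footprints with PP242 in every genotype, so the choice followed that result. Whether the run bears on the loss was not tested. Each 20-base window begins 5 bases before an annotated start in RefSeq on GRCh38.p14, so the start is the sixth base. Capitals mark the unbroken run of pyrimidines that holds the start, including any just before it. Counted from the start itself the run has 5 bases in HSPD1 and HSP90AB1, 3 in HSPA8 and 9 in RPLP0.
HSPD1, chr2:197499826-197499845, minus strand: tctgTCCCTCactcgccgcc
HSP90AB1, chr6:44247096-44247115, plus strand: tagCTCTCTCgagtcactcc
HSPA8, chr11:123062122-123062141, minus strand: ccggTCTCattgaactcgcc
RPLP0, a TOP mRNA for reference, chr12:120201097-120201116, minus strand: gaggCCCTTCTCTCgccagg
Such starts made up 4.07% of all 35116 windows, 2 of the 14 windows annotated for the members and 8 of 10 windows of the reference TOP mRNAs. HSPD1 and HSP90AB1 each have other annotated starts without the run, and which start these cells use was not measured.

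The promoters of 4 of 10 members held a heat shock element and those of 2 an endoplasmic reticulum (ER) stress element. The core of a heat shock element, TTC, 2 bases of any kind, GAA, 2 of any kind and TTC, was sought on both strands in the 300 bases around each annotated start and occurred in 0.490% of all windows. It occurred for 4 members, HSPA8, HSP90AB1, HSP90AA1 and HSPD1. The ER stress element, CCAAT, 9 bases of any kind and CCACG, occurred in 0.0769% of windows and for HSPA5 and HSP90B1. HSPA1A, HSPH1, HSPA9 and HSPE1 had neither in these windows. Only these exact letters were sought, so looser or more distant elements were not counted. An HSPD1 match, within chr2:197500065-197500090, lies before the start of the neighbouring HSPE1 gene (197500379) but outside the HSPE1 window. Members are counted per gene over any of their windows (14 for 10 genes), while the 2 percentages are per window. Capitals mark the match, read along the gene's strand.
HSPA8, heat shock element, chr11:123062171-123062199: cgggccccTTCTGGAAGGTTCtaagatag
HSP90AA1, heat shock element, chr14:102087112-102087140: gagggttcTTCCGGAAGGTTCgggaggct
HSP90AB1, heat shock element, chr6:44247823-44247851: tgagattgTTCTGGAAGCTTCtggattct
HSPA5, ER stress element, chr9:125241383-125241417: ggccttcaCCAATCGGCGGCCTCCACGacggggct
HSP90B1, ER stress element, chr12:103930208-103930242: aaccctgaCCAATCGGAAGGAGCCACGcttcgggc
A match describes the letters and is not evidence that a factor binds there. Among the ER partner genes, 4 of 16 with a promoter window held the ER stress element (CALR, CANX, CRELD2 and PDIA6).

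All members were abundant, with mean naive DMSO footprint CPM above at least 97.9% of transcripts. The shares of all transcripts called, given below, were not matched for abundance. Whether members exceed the share among transcripts of like counts was not tested. In naive cells in DMSO the footprint level per kilobase of counted sequence ran from 96.9 ± 2.73 CPM (SD, n = 2) for HSPH1 to 2446 ± 0.310 for HSP90AA1. HSP90AB1 (1559 ± 17.3), HSPE1 (1473 ± 115.7), HSPA8 (1319 ± 39.6) and HSPD1 (1276 ± 52.3) followed HSP90AA1. From HSP90AB1 to HSPD1 each level lay within the summed SDs of its neighbour. Farther apart in the order, HSP90AB1 exceeded HSPA8 and HSPD1, and HSPE1 exceeded HSPD1, by more than their summed SDs. HSPA1A (1012 ± 116.002), HSP90B1 (800.4 ± 28.1), HSPA9 (542 ± 5.57) and HSPA5 (422 ± 5.91) stood lower, each apart from the next by more than the SD.

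The mRNA order was not the footprint order. Per kilobase, naive mRNA was highest for HSP90AA1 (909 ± 25.8 CPM, SD, n = 2), HSPA8 (831 ± 12.4) and HSPA1A (823 ± 83.7) and lowest for HSPA5 (82.1 ± 7.86) and HSPH1 (31.2 ± 0.509). The ratio of footprints to mRNA, each as CPM, was 5.04 for HSPA5, a ratio above that of 97.0% of 25076 transcripts, whose median was 0.926. HSPH1 (3.05), HSPE1 (2.995), HSP90AA1 (2.64) and HSP90AB1 (2.52) came next, and HSPA8 (1.56), HSPA9 (1.45) and HSPA1A (1.21) were lowest. All 10 ratios lay above the median of all transcripts, and the ratio carries the differences between the 2 kinds of library as well as translation.

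In EIF4A1 KO cells the mRNA of the ER chaperone BiP rose with those of 14 of 17 ER partners, while the inducible HSP70 and the mitochondrial members HSP60 and mortalin fell. HSPA5 mRNA was at 148 and 170 CPM in the naive libraries and at 262 and 260 in EIF4A1 KO. HSPH1 was at 78.6 and 80.4 CPM in naive cells and 111 and 107 in EIF4A1 KO, and HSPA8 at 1606 and 1572 against 1753 and 1906. For all 3 genes both EIF4A1 KO libraries lay above both naive ones. Here and below, such separation of libraries is no test, and the share of all transcripts that separate was not counted. The log2 changes were 0.70 (SE 0.0445, adjusted p = 2.34e-14) for HSPA5, 0.44 (SE 0.0472, adjusted p = 3.55e-09) for HSPH1 and 0.19 (SE 0.030, adjusted p = 5.32e-06) for HSPA8 by edgeR's quasi-likelihood test with Benjamini-Hochberg adjustment over all transcripts, used throughout.

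The mRNAs of 3 members fell. HSPA1A was at 1449 and 1673 CPM in naive cells and 941 and 1075 in EIF4A1 KO. HSPD1 went from 1170 and 1181 to 939 and 970 CPM, and HSPA9 from 749 and 723 to 635 and 654. Again the groups did not overlap. The changes were -0.64 (SE 0.0444, adjusted p = 2.05e-13), -0.31 (SE 0.0282, adjusted p = 9.36e-11) and -0.20 (SE 0.0309, adjusted p = 2.50e-06). HSP90AB1 (-0.01), HSP90AA1 (0.01), HSP90B1 (0.07) and HSPE1 (-0.10) did not pass the test, though HSP90B1 was called without naive replicate 2 (adjusted p = 0.0174) or EIF4A1 KO replicate 1 (adjusted p = 0.0190) and with no low-count filter (adjusted p = 0.0160). In all, 6 of 10 members passed it, 3 in each direction, where 36.5% of 25745 transcripts did (18.1% higher and 18.4% lower), and the member median of -0.00 equalled that of all transcripts. HSPA5 alone lay beyond the 95th percentile of all changes (0.68). The libraries are bulk lysates, so a change in some cells and a smaller one in all cells cannot be told apart.

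The partners of each compartment differed. Of 17 ER partners 14 rose and 1 fell (median 0.32), led by the J-domain co-chaperones of BiP DNAJB11 (1.17, SE 0.0441) and DNAJB9 (0.70, SE 0.116), while SDF2L1, which keeps such co-chaperones in solution, fell (-0.50, SE 0.0715). Of 10 mitochondrial partners 2 rose and 6 fell (median -0.26), among them the protease LONP1 (-0.78, SE 0.0388) and GRPEL1, the nucleotide exchange factor of mortalin (-0.60, SE 0.0575). Of 25 cytosolic partners measured 8 rose and 8 fell (median 0.05). The J-domain protein DNAJA1 rose (0.42, SE 0.0385), and the small heat shock protein HSPB1 (-1.43, SE 0.174) and the kinase adaptor of HSP90 CDC37 (-0.30, SE 0.0347) fell. DNAJC19 (0.28) and CLPX (0.21) were the mitochondrial partners that rose.

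**Figure D2:**
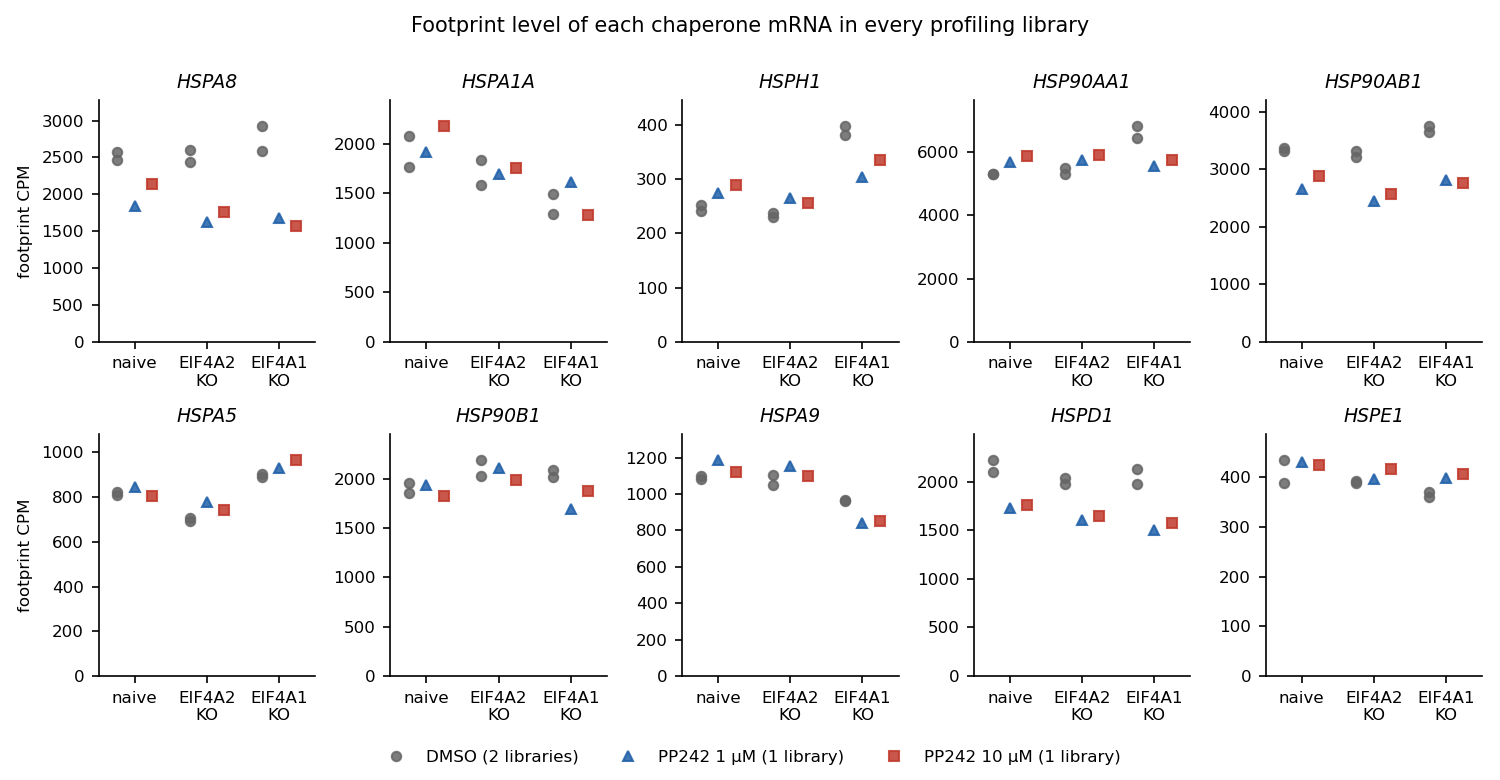
Footprint CPM of each member in all 12 profiling libraries, by genotype, with 2 DMSO libraries and 1 library at each PP242 dose. HSPH1 and HSP90AA1 are highest in the EIF4A1 KO DMSO libraries, and HSPA8, HSP90AB1 and HSPD1 lie lower under PP242 in each genotype.

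Footprints in DMSO followed in part. HSPH1 was at 252 and 242 CPM in naive cells and 397.5 and 380 in EIF4A1 KO cells. HSP90AA1 was at 5306 and 5305 against 6820 and 6442 CPM, and HSPA1A at 1763 and 2074 against 1487 and 1286. None of the 3 overlapped between genotypes, which is no test by itself. The log2 changes were 0.66 (SE 0.0656, adjusted p = 1.34e-15) for HSPH1, 0.33 (SE 0.0456, adjusted p = 2.95e-09) for HSP90AA1 and -0.46 (SE 0.0561, adjusted p = 1.63e-11) for HSPA1A.

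A further 5 changes, all smaller, also passed the test: HSP90AB1 (0.15, SE 0.0471), HSPA5 (0.14, SE 0.0543), HSPA8 (0.14, SE 0.0498), HSPA9 (-0.17, SE 0.0531) and HSPE1 (-0.16, SE 0.0635). Their adjusted p lay between 0.0105 and 0.0499. HSPD1 (-0.07) and HSP90B1 (0.11) did not pass. That made 8 of 10 members, 5 higher and 3 lower, where 22.7% of 19845 transcripts were called (10.9% higher and 11.8% lower), with a member median of 0.12 against -0.01 for all transcripts. This share covers transcripts of all levels and was not matched to the members' high counts. All 10 changes lay between the 5th and 95th percentiles of all transcripts (-0.98 and 0.75). The median size of all called changes was 0.58. The calls of HSPH1, HSP90AA1 and HSPA1A held when any 1 library was left out, and each of the other 5 was lost with at least 1 of them. Then 4 members were called without naive replicate 1, 3 without EIF4A1 KO replicate 1, 5 without EIF4A1 KO replicate 2 and 7 without naive replicate 2.

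The ER partners again moved upward, 9 of 17 higher and 2 lower (median 0.18), with DNAJC3 (0.65, SE 0.107), a J-domain protein of the unfolded protein response, at the top and SDF2L1 (-0.89, SE 0.176) at the bottom. No mitochondrial partner rose and 5 of 10 fell, including the proteases LONP1 (-0.62, SE 0.0941) and CLPP (-0.60, SE 0.107). Of 25 cytosolic partners 6 rose and 8 fell, DNAJA1 by 0.45 (SE 0.0623) upward and the ubiquitin ligase STUB1 by -0.66 (SE 0.0868).

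The change of footprints beyond that of mRNA, taken from 1 model over both kinds of library, passed the test for 4 members, where 9.48% of 25459 transcripts did (3.72% higher and 5.76% lower). HSP90AA1 rose by 0.31 (SE 0.0506, adjusted p = 3.43e-06), so that its ratio of footprints to mRNA went from 2.64 to 3.25. HSPD1 rose by 0.24 (SE 0.0557, adjusted p = 0.00148), its mRNA being lower and its footprints within 0.07 of naive cells. HSP90AB1 rose by 0.15 (SE 0.0525, adjusted p = 0.0478). HSPA5 fell by 0.57 on the log2 scale (SE 0.0669, adjusted p = 1.09e-10), from a ratio of 5.04 to 3.37.

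For HSPA5, then, mRNA was 1.63-fold higher and footprints 1.10-fold higher. The other 6 members lay between -0.08 and 0.21 and did not pass the test. No member lay outside the 5th to 95th percentiles of all transcripts in this measure (-1.37 to 1.04). Of the ER partners 5 of 17 fell in this measure and none rose (median -0.16), with DNAJB11 at -0.93 (SE 0.0949) and HERPUD1 at -0.54 (SE 0.152), and 6 of 11 reference TOP mRNAs fell (median -0.25), against -0.04 for all transcripts. The HSP90AB1 call was lost when any of 7 libraries was left out (adjusted p 0.0687 to 0.541), and the HSPD1 call without naive profiling replicate 2 (adjusted p = 0.0693) or EIF4A1 KO profiling replicate 2 (adjusted p = 0.164). Calls were also gained. HSPA1A, at 0.21, was called higher without naive or EIF4A1 KO profiling replicate 2, naive RNA replicate 1 or EIF4A1 KO RNA replicate 2 (adjusted p 0.00155 to 0.0285) and with no low-count filter (adjusted p = 0.0443). HSPA8 was called lower (-0.21, adjusted p = 0.0156) without EIF4A1 KO profiling replicate 1.

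**Figure D3:**
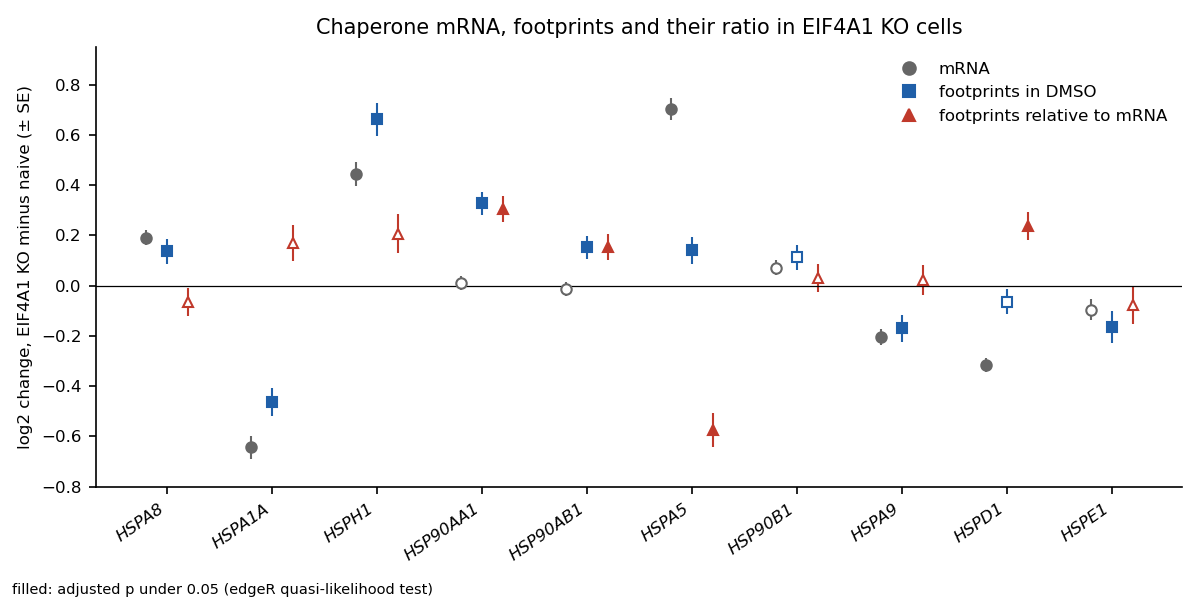
Log2 change between EIF4A1 KO and naive cells (± SE) of each member's mRNA, its footprints in DMSO and its footprints relative to mRNA, filled where the adjusted p is under 0.05. HSPA5 has the highest mRNA change (0.70) and the lowest change relative to mRNA (-0.57), and HSP90AA1 footprints rise with no called change of mRNA.

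In EIF4A2 KO cells fewer members moved, in a comparison that shares the naive libraries with the one above. HSPA5 footprints were at 692 and 705 CPM, below 808 and 824 in naive cells, and HSPA1A footprints were at 1837 and 1588 CPM against 1763 and 2074, so that HSPA5 did not overlap and HSPA1A did. HSPA5 fell by 0.24 on the log2 scale (SE 0.0532, adjusted p = 0.000745) and HSPA1A by 0.18 (SE 0.0546, adjusted p = 0.0258). These 2 of 10 compare with 8.05% of 19845 transcripts called and 4.32% called lower, and the other 8 members lay between -0.12 and 0.14. No member lay outside the 5th to 95th percentiles of all changes (-0.61 to 0.55). The HSPA1A call was lost without naive replicate 2 (adjusted p = 0.781) or EIF4A2 KO replicate 2 (adjusted p = 0.627), and HSP90B1 was called higher without EIF4A2 KO replicate 1 (adjusted p = 0.0301) and with no low-count filter (adjusted p = 0.0387). HSPA5 footprints were thus called higher in EIF4A1 KO (0.14) and lower in EIF4A2 KO, each against the same naive libraries. The call in EIF4A1 KO was lost with any 1 naive or EIF4A1 KO DMSO library left out (values 0.12 to 0.16).

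Among the partners, DNAJB11 (-0.86, SE 0.0905) and DNAJC3 (-0.33, SE 0.107) of the ER and HSPB1 (-0.66, SE 0.187) and the HSP70 exchange factor HSPBP1 (-0.43, SE 0.0989) of the cytosol fell, and the mitochondrial DNAJC19 (0.57, SE 0.126) and LONP1 (0.27, SE 0.0764) rose. These were the only called members of their lists, 2 of 17, 2 of 25 and 2 of 10. All 11 reference TOP mRNAs had fewer footprints (median -0.24).

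PP242 lowered the footprints of HSPA8, HSP90AB1 and HSPD1 in naive cells, relative to the other transcripts. Footprint levels here and below are shares of each library, so total translation was not measured. RNA-seq covered no PP242-treated and no EIF4A2 KO cells, so footprint changes there may include changes of mRNA. HSPA8 was at 2467 and 2574 CPM in DMSO, 1844 at 1 µM and 2147 at 10 µM. HSP90AB1 was at 3318 and 3370 CPM in DMSO, 2660 at 1 µM and 2888 at 10 µM. HSPD1 was at 2222 and 2097 CPM in DMSO, 1734 at 1 µM and 1763 at 10 µM. Both PP242 libraries lay below both DMSO libraries for all 3 genes, and for each the lower value was at 1 µM. HSP90AA1, HSPA9 and HSPH1, which were not called, separated upward, and the share of all transcripts that separate was not counted.

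With the 2 doses in 1 group, since each has 1 library, the log2 changes were -0.34 (SE 0.0621, adjusted p = 4.51e-05) for HSPA8, -0.30 (SE 0.0559, adjusted p = 4.80e-05) for HSPD1 and -0.27 (SE 0.0549, adjusted p = 0.000292) for HSP90AB1. The other 7 members lay between -0.01 and 0.19 and did not pass the test. Thus 3 of 10 fell, where 5.71% of 20506 transcripts were called lower and 9.38% were called in either direction. No member lay outside the 5th to 95th percentiles of all changes (-0.74 to 0.56). Of 25 cytosolic partners 2 fell and 4 rose, of 17 ER partners 3 fell, and of 10 mitochondrial partners 1 fell. Among those that fell were ST13 of the cytosol (-0.59, SE 0.0701) and P4HB (-0.57, SE 0.0679) and CANX (-0.33, SE 0.0573) of the ER. The reference TOP mRNAs fell further, 11 of 11 with a median of -1.82 and a smallest fall of 1.38 on the log2 scale. With dose entered as a score of 0, 1 and 2 none of the members passed in any genotype (lowest adjusted p 0.304 in naive cells, 0.0776 for EIF4A1 KO and 0.0923 for EIF4A2 KO), and over all transcripts 288, 0 and 448 were called.

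In EIF4A1 KO cells 7 members lost footprints with PP242. HSPA8 was at 2927 and 2593 CPM in DMSO, 1679 at 1 µM and 1568 at 10 µM. HSPH1 was at 397.5 and 380 CPM in DMSO, 303.1 at 1 µM and 335 at 10 µM. HSP90AA1 was at 6820 and 6442 CPM in DMSO, 5565 at 1 µM and 5753 at 10 µM. For these 3 and for the other 4 called members, both PP242 libraries lay below both DMSO libraries. HSPA5 and HSPE1, which were not called, separated upward. The share of all transcripts that separate was not counted, so separation adds nothing to the calls.

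The log2 changes in EIF4A1 KO cells were -0.77 for HSPA8 (SE 0.0627, adjusted p = 1.68e-16), -0.42 for HSPD1 (SE 0.0564, adjusted p = 2.41e-08) and -0.42 for HSP90AB1 (SE 0.0551, adjusted p = 1.95e-08). HSPH1 (-0.29, SE 0.0680), HSP90AA1 (-0.23, SE 0.0527), HSP90B1 (-0.21, SE 0.0578) and HSPA9 (-0.19, SE 0.0590) also fell, with adjusted p from 0.00179 to 0.0330. HSPA1A (0.06), HSPA5 (0.08) and HSPE1 (0.13) did not pass. These 7 of 10 stand beside 3.70% of transcripts called lower and 6.01% called in either direction, and the member median was -0.22 against 0.01 for all transcripts. HSPA8 alone lay below the 5th percentile of all changes (-0.61). Of the partners, 3 of 25 cytosolic and 2 of 17 ER ones fell, and 1 cytosolic one rose. ST13 (-0.39), P4HB (-0.36) and CANX (-0.25) were among those that fell. Left-out libraries reduced the 7 to 3 without EIF4A1 KO DMSO replicate 1 and to 4 without the 1 µM library, while HSPA8, HSP90AB1 and HSPD1 held throughout.

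The difference between the responses was tested itself. From naive to EIF4A1 KO cells the response to PP242 was lower by 0.48 for HSPH1 (value -0.48, SE 0.0970, adjusted p = 0.000513), and it was -0.44 for HSPA8 (SE 0.0880, adjusted p = 0.000468), -0.36 for HSP90AA1 (SE 0.0744, adjusted p = 0.000740) and -0.28 for HSPA9 (SE 0.0824, adjusted p = 0.0243). For HSPH1 and HSP90AA1 both PP242 libraries lay above both DMSO libraries in naive cells and below them in EIF4A1 KO cells. The same DMSO libraries gave the higher footprints of both genes in EIF4A1 KO cells, so the results are not independent. Under PP242 HSP90AA1 was at 5667.9 CPM (1 µM) and 5860.5 (10 µM) in naive cells, against 5565.4 and 5753.2 in EIF4A1 KO. HSPH1 was at 273.5 and 289.06 CPM against 303.1 and 335.2. The genotypes were not tested against each other under PP242. The 4 of 10 members with a lower response compare with 2.44% of transcripts called lower and 6.06% called in all. The HSPA9 call was lost without any of 6 libraries (adjusted p 0.0576 to 0.110), and no member passed with the dose score (lowest adjusted p 0.382).

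The reference TOP mRNAs differed in the other direction. In them 8 of 11 responses were higher in EIF4A1 KO than in naive cells and none lower (median 0.47), with median PP242 changes of -1.82 in naive and -1.47 in EIF4A1 KO cells. Of 25 cytosolic partners 4 had a lower response and 1 a higher one. DNAJA1 (-0.43, SE 0.0928) and the HSP90 cyclophilin PPID (-0.52, SE 0.162) were lower and STUB1 (0.48, SE 0.128) higher. In the ER and mitochondrial lists 1 of 17 and 1 of 10 differed, HERPUD1 (0.58, SE 0.179) and DNAJC19 (0.71, SE 0.225), both higher.

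EIF4A2 KO cells lost footprints with PP242 for the 3 mRNAs that fell in naive cells. HSPA8 was at 2597 and 2443 CPM in DMSO, 1626 at 1 µM and 1766 at 10 µM, a log2 change of -0.56 (SE 0.0620, adjusted p = 2.82e-11). HSP90AB1 changed by -0.37 (SE 0.0548, adjusted p = 3.27e-07) and HSPD1 by -0.30 (SE 0.0557, adjusted p = 5.18e-05). The other 7 lay between -0.04 and 0.16, and 7.11% of transcripts were called lower and 11.7% in either direction. Of the partners, 4 of 25 cytosolic, 4 of 17 ER and 3 of 10 mitochondrial ones fell, and 2, 1 and 1 rose. ST13 (-0.57), P4HB (-0.85) and CANX (-0.35) were again among those that fell. No member's response differed from that of naive cells by edgeR's test, with differences between -0.23 and 0.11, where 14 of 20506 transcripts did (0.0683%), 1314 had an unadjusted p under 0.05 and DESeq2's Wald test called 9. For HSPA8, the member with the largest difference, it was -0.23 (SE 0.0876), and its 95% normal interval ran from -0.40 to -0.06.

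Set against EIF4A2 KO cells, the EIF4A1 KO response was lower for HSPH1 (-0.45, SE 0.0964, adjusted p = 0.00107), HSP90AA1 (-0.35, SE 0.0744, adjusted p = 0.000788) and HSPA9 (-0.27, SE 0.0821, adjusted p = 0.0332). That is 3 of 10 where 2.52% of transcripts were called lower and 6.22% in all. No member lay outside the 5th to 95th percentiles of all such differences (-0.75 to 1.02). This comparison shares the EIF4A1 KO libraries with the one against naive cells. HSPA8 differed by -0.21 and did not pass (adjusted p = 0.163). The HSPA9 call was again lost without any of 6 libraries (adjusted p 0.0750 to 0.170). All 11 reference TOP mRNAs had a higher response in the EIF4A1 KO line (median 0.60).

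**Figure D4:**
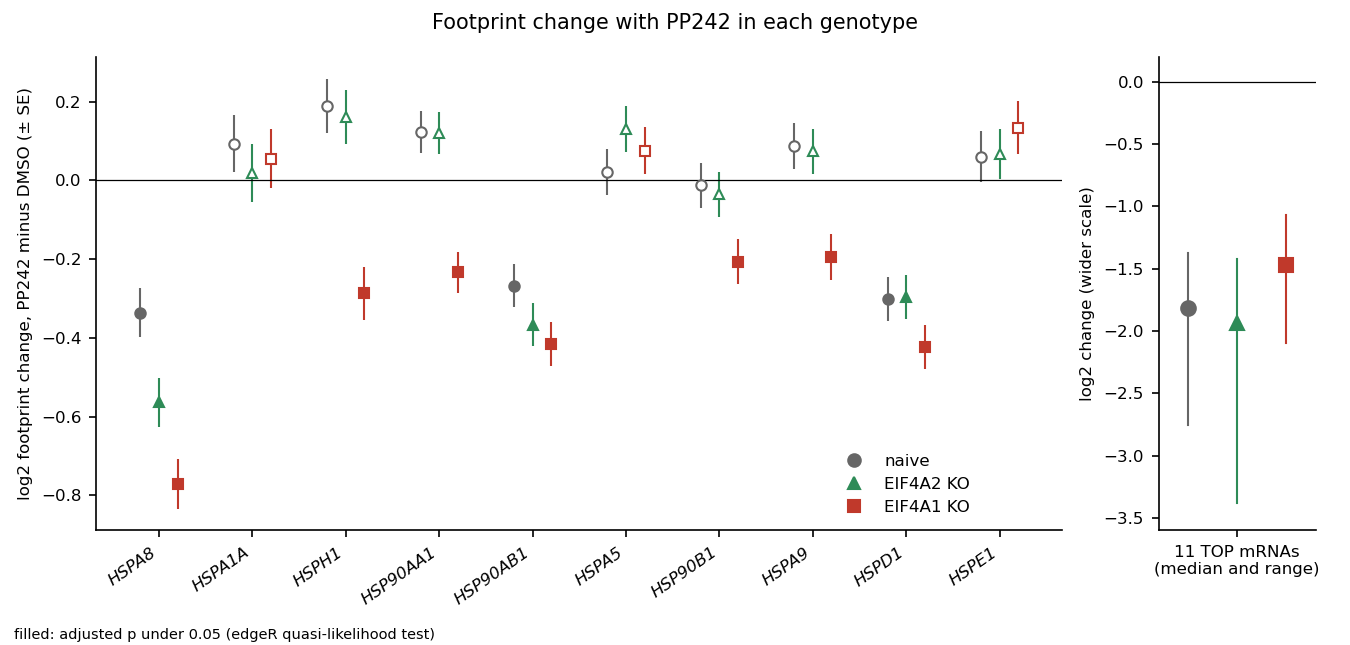
Left, log2 footprint change with PP242 (both doses together, ± SE) of each member in naive, EIF4A2 KO and EIF4A1 KO cells, filled where the adjusted p is under 0.05; right, median and range of 11 reference TOP mRNAs on a wider scale. HSPA8 falls in each genotype, by 0.34, 0.56 and 0.77 on the log2 scale, and HSPH1 and HSP90AA1 fall in EIF4A1 KO cells.

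Over the 12 profiling libraries the members' log2 CPM were compared pair by pair. HSPA8 was closest to HSP90AB1, and HSPD1 to HSPA8 (Pearson r 0.93 for HSPA8 with HSP90AB1 and 0.91 for HSPA8 with HSPD1), and HSP90AA1 was closest to HSPH1 (r 0.86). HSPA5 was also closest to HSPH1 (r 0.79), while HSPA5 and HSPA9 were farthest apart (r -0.69). These values are descriptions over 12 libraries that share genotype, treatment and scaling.

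Most chaperone mRNAs stood lower in the pulldowns of tagged eIF4A1 and eIF4A2 than in the inputs, relative to the other transcripts. Levels are shares of each library, so the amount of RNA recovered was not measured here. HSP90AA1 was at 1406 and 1456 CPM in the SBP-eIF4A1 inputs and 296.3 and 313 in the pulldowns. HSPA5 went from 93.9 and 95.01 to 24.8 and 27.6 CPM, and HSPA8 from 1140 and 1125 to 388 and 391.96. HSPE1 alone was higher in the pulldowns, 159 and 169 CPM against 118 and 124 in the inputs. In all 4 the inputs and pulldowns stood apart, though the share of all transcripts that do so was not counted.

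The log2 pulldown-to-input values for SBP-eIF4A1 were -2.22 (SE 0.0550, adjusted p = 2.51e-14) for HSP90AA1, -1.83 (SE 0.0921) for HSPA5, -1.52 (SE 0.0546) for HSPA8, -1.52 (SE 0.0586) for HSPD1 and 0.46 (SE 0.0605, adjusted p = 5.50e-06) for HSPE1. HSP90AB1 (-1.25), HSP90B1 (-1.15), HSPH1 (-1.07), HSPA9 (-1.06) and HSPA1A (-0.40) were lower in the pulldown as well. Thus 9 of 10 were called lower, where 26.7% of 26601 transcripts were, and 55.4% were called in either direction. The member median was -1.20 against 0.04 for all transcripts, and 4 members lay below the 5th percentile of all values (-1.42).

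With SBP-eIF4A2 the values ran from -2.42 (SE 0.0548) for HSP90AA1 to -0.51 (SE 0.0852) for HSPA1A, with HSPD1 at -1.96 (SE 0.0593) and HSPH1 at -1.53 (SE 0.0746). HSPE1 was at 114 and 111 CPM in the inputs and 112 and 108 in the pulldowns, groups that overlapped, with a value of -0.00 (SE 0.0598, adjusted p = 0.992). Here 9 of 10 were called lower, beside 30.0% of transcripts called lower and 59.8% called in either direction, and 5 members lay below the 5th percentile (-1.55). The member median was -1.59.

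The partner lists were lower in the pulldowns less uniformly. With SBP-eIF4A1, 17 of 25 cytosolic partners were lower and 4 higher (median -0.41), 13 of 17 ER partners lower and 3 higher (median -0.80), and 5 of 10 mitochondrial partners each way (median -0.01). HSPA4, an HSP110 relative of HSPH1, was at -2.05 (SE 0.0629) and calnexin (CANX) at -1.82 (SE 0.0623). HSPB1 (1.79, SE 0.0811), CRELD2 (1.21, SE 0.0973) and DNAJC19 (1.62, SE 0.0889) were higher in the pulldown. The reference TOP mRNAs had a median of 0.41 with SBP-eIF4A1 and -0.40 with SBP-eIF4A2.

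The 2 proteins differed for 5 members, where 15.7% of transcripts were called (10.4% higher with SBP-eIF4A1 and 5.30% lower). Recovery with SBP-eIF4A1 exceeded that with SBP-eIF4A2 by 0.46 (SE 0.108, adjusted p = 0.00650) for HSPH1, 0.46 (SE 0.0851, adjusted p = 0.00127) for HSPE1, 0.44 (SE 0.0815, adjusted p = 0.00116) for HSPD1 and 0.41 (SE 0.0832, adjusted p = 0.00254) for HSP90AB1. For HSP90B1 it was -0.26 (SE 0.0795, adjusted p = 0.0350). The member median was 0.17 against 0.03 for all transcripts, and all 11 reference TOP mRNAs were recovered more with SBP-eIF4A1 (median 0.84). No member lay outside the 5th to 95th percentiles of all such differences (-0.95 to 0.95). Of the partners 11 of 25 cytosolic, 6 of 17 ER and 4 of 10 mitochondrial ones were recovered more with SBP-eIF4A1, and none less. The HSP90B1 call was lost without any of 6 libraries (adjusted p 0.0529 to 0.211), and without SBP-eIF4A2 input replicate 1 the HSPH1 call was lost as well (adjusted p = 0.0591), leaving 3. HSP90AA1 was called as well without SBP-eIF4A2 pulldown replicate 1 (adjusted p = 0.0395) or 2 (adjusted p = 0.00673), and HSPA1A without pulldown replicate 1 (adjusted p = 0.0138).

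After control siRNA the pulldown was low in 8 members. HSPE1 was at 352.8 and 405.5 CPM in the siControl inputs and 124 and 130.5 in the pulldowns. HSP90B1, at 1166 and 1293 CPM in the inputs and 1018.7 and 1303 in the pulldowns, and HSPA1A, at 1076 and 954 CPM against 1226 and 872, had groups that overlapped. The log2 values were lowest for HSPD1 (-2.22, SE 0.180) and HSPA8 (-2.15, SE 0.181), -1.59 (SE 0.186, adjusted p = 1.66e-09) for HSPE1, -0.10 (SE 0.175) for HSP90B1 and 0.04 (SE 0.183) for HSPA1A. These 8 of 10 stand beside 24.1% of 26708 transcripts called lower and 49.3% called in either direction, and the member median was -1.36. The other lists were low in this pulldown too. All 11 reference TOP mRNAs were lower with a median of -1.86, below that of the members, as were 17 of 25 cytosolic partners (median -1.14), 14 of 17 ER partners (median -1.17) and 5 of 10 mitochondrial partners (median -0.52). The spread of this fit also uses the library labelled siLARP1 input replicate 2, and without it the same count of 8 was called.

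Recovery in the siControl experiment differed from that without siRNA for 6 members, where 50.2% of transcripts did (26.4% higher and 23.8% lower). It was lower for HSPE1 (-1.98, SE 0.153, adjusted p = 1.10e-07), HSPD1 (-0.64, SE 0.139, adjusted p = 0.00142) and HSPA8 (-0.57, SE 0.135, adjusted p = 0.00282). It was higher for HSP90B1 (1.1201, SE 0.164, adjusted p = 5.09e-05), HSPA5 (0.55, SE 0.165, adjusted p = 0.0120) and HSPA1A (0.50, SE 0.182, adjusted p = 0.0330). The reference TOP mRNAs were lower in all 11 cases (median -2.55). The HSPA1A call was lost without any of 6 libraries (adjusted p 0.0566 to 0.109) and the HSPA5 call without SBP-eIF4A1 input replicate 2 (adjusted p = 0.0574) or pulldown replicate 1 (adjusted p = 0.0784). HSP90AA1 was called higher with the replicate block (0.37, adjusted p = 0.0102), with no low-count filter (adjusted p = 0.0208) and without siControl input replicate 2 (adjusted p = 0.0409) or siControl pulldown replicate 1 (adjusted p = 0.000220), and without the last HSPH1 was called higher too (0.47, adjusted p = 0.00911).

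The inputs of these 2 experiments differed as well, in a comparison added after the values were seen. Of 10 members 9 were higher in the siControl inputs, where 45.9% of 26116 transcripts were called and 23.0% called higher, with a member median of 0.71 against -0.03. HSPE1 (1.70, SE 0.110), HSP90AA1 (1.32, SE 0.112) and HSPA8 (1.302, SE 0.0967) stood at the top. HSPA1A (-0.08) did not pass. The HSPA5 and HSP90AB1 calls, the smallest, were each lost without 3 of the 4 libraries. The siRNA and the experiment cannot be told apart, and the part of these input levels in the recovery values was not tested.

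**Figure D5:**
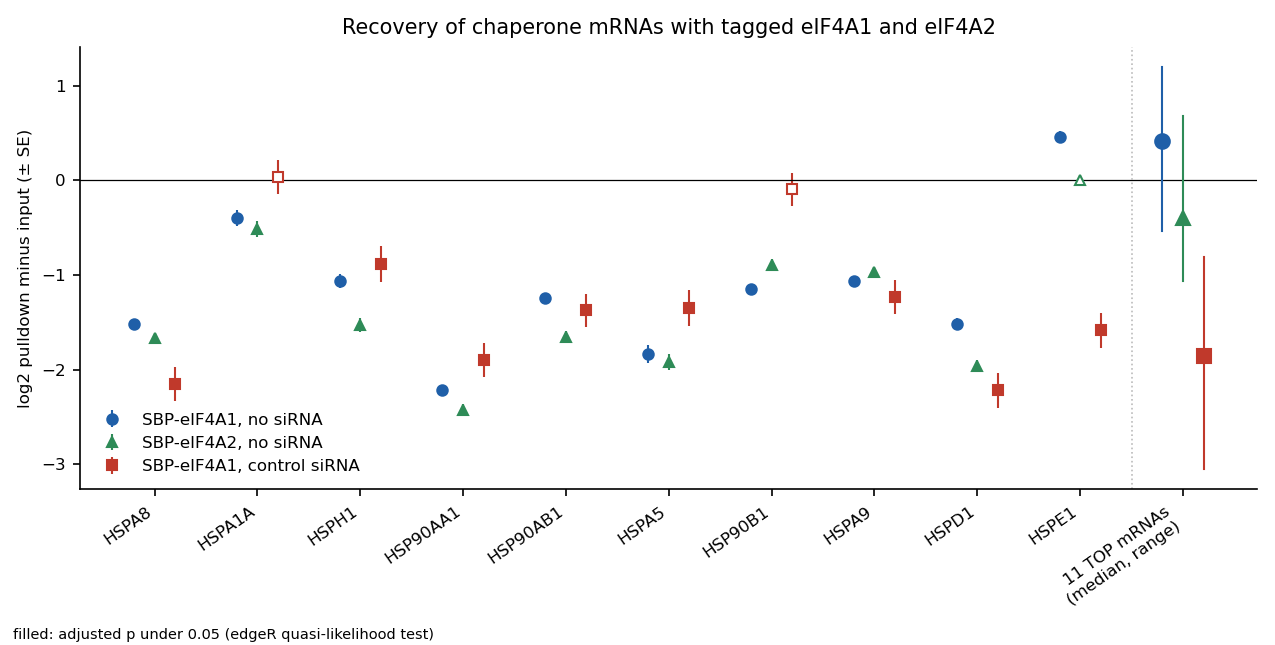
Log2 pulldown minus input (± SE) of each member with SBP-eIF4A1, SBP-eIF4A2 and SBP-eIF4A1 after control siRNA, filled where the adjusted p is under 0.05, with the median and range of 11 reference TOP mRNAs at the right. Most members lie between -0.9 and -2.4, and HSPE1 ranges from 0.46 with SBP-eIF4A1 to -1.59 after control siRNA.

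LARP1 siRNA changed no member's input level by edgeR's test, where 0.517% of 26708 transcripts were called (138, with 3225 at an unadjusted p under 0.05). HSPE1 was at 352.8 and 405.5 CPM in siControl and 234 and 276 in siLARP1 inputs, a log2 change of -0.58 (SE 0.182, adjusted p = 0.124), and DESeq2's Wald test called it (adjusted p = 0.0276). HSPA8 (-0.42, SE 0.173) was at 2513 and 2890 against 1811 and 2246 CPM, and HSPA5 (0.43, SE 0.185) at 123 and 114 against 171 and 151. The groups did not overlap in these 3, which is no test, and the share of all transcripts that separate in this way was not counted. Without the library labelled siLARP1 input replicate 2 no member was called either, and the 3 values were -0.70, -0.58 and 0.52.

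With 1 siLARP1 pulldown library the change of recovery has no test. Against siControl it was -0.39 for HSPA1A, -0.38 for HSP90AB1 and -0.32 for HSPA5, and between -0.04 and 0.05 for the other 7 members. Over all transcripts the middle 90% of such values ran from -0.86 to 0.87. Without the library labelled siLARP1 input replicate 2 the 3 values were -0.57, -0.48 and -0.41, HSPA8 was at 0.20 and HSPA9 at -0.19.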

How the data were processed

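The deposited tables hold raw counts per Ensembl transcript, 1 table per library, beside a length read from its values as codons counted, which is each member's protein length minus 9. The submitters' processing notes name CASAVA 1.8, STAR 2.7.0a and hg38. The counter, its filters and the annotation release are not given in the sources used here, so how the authors assigned reads shared by transcripts or near-identical genes is unknown, and the counts are taken as deposited. Transcripts of a gene repeat the same reads, so 1 transcript was kept per locus (neighbouring rows with counts correlated above 0.9), 35500 in all.

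Counts were fitted in R 4.3.3 with edgeR 4.0.16 (limma 3.58.1): TMM scaling, filterByExpr (minimum count 10, total 15), a 2-sided quasi-likelihood test and Benjamini-Hochberg adjustment over all transcripts, called at an adjusted p under 0.05. Levels are TMM-scaled CPM, and values without a test use a prior count of 2. DESeq2 1.42.0, its size factors, no low-count filter, all distinct transcripts, the dose as a score, the replicate number as a block and leaving out each library were tried as alternatives. The edgeR step was tested on simulated counts.

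The members and lists were chosen with earlier results of these data known. Their identifiers and protein lengths came from general knowledge, in place of a RefSeq protein table, and were kept where the length matched: 66 of 67 list genes did (65 at the exact offset), FKBP5 did not. List genes are named where they were called and among the 2 largest changes of their list in a direction. Promoters and starts are from RefSeq, GRCh38.p14.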

Additional observations from a re-analysis of the deposited data

Results flagged for a closer look

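For 18 values the difference between the effects in 2 groups passed its own test (edgeR's quasi-likelihood test, adjusted p under 0.05). Of all transcripts, 6.06% were called in the PP242 response of EIF4A1 KO against naive cells and 6.22% against EIF4A2 KO. For EIF4A2 KO against naive cells 0.0683% were called and no member. Between the tagged proteins 15.7% were called, and between siControl and no siRNA 50.2%. In the response to PP242, EIF4A1 KO differed from naive cells by -0.48 for HSPH1, -0.44 for HSPA8, -0.36 for HSP90AA1 and -0.28 for HSPA9. Against EIF4A2 KO the values were -0.45 for HSPH1, -0.35 for HSP90AA1 and -0.27 for HSPA9. Both comparisons use the EIF4A1 KO DMSO libraries, in which HSPH1 and HSP90AA1 footprints were higher than in the naive DMSO libraries. Recovery with SBP-eIF4A1 differed from that with SBP-eIF4A2 by 0.46 for HSPH1, 0.46 for HSPE1, 0.44 for HSPD1, 0.41 for HSP90AB1 and -0.26 for HSP90B1. Recovery after control siRNA differed from that without siRNA by -1.98 for HSPE1, -0.64 for HSPD1, -0.57 for HSPA8, 1.1201 for HSP90B1, 0.55 for HSPA5 and 0.50 for HSPA1A. Some of these calls were lost when a single library was left out. They were HSPA9 in both responses, HSP90B1 and HSPH1 between the tagged proteins, and HSPA5 and HSPA1A after control siRNA. None of the PP242 responses passed with the dose score.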

How the results depend on the processing

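Of 1760 member values under an alternative, 0 called values changed sign, 78 that were called in neither setting did, and 124 calls were gained or lost, 81 of them with 1 library left out and 20 with the dose score. DESeq2's Wald test called 5 members in the footprints of EIF4A1 KO, 1 in those of EIF4A2 KO and 1 in the siLARP1 inputs. The dose score called 0 in each PP242 comparison and response. With 1 library left out, member calls ran from 3 to 7 for EIF4A1 KO footprints, 1 to 3 for EIF4A2 KO footprints, 3 to 6 for PP242 in EIF4A1 KO and 3 to 7 between the tagged proteins, and the median siLARP1 recovery change ran from -0.17 to 0.078. A group left with 1 library is assumed to vary like the others. The replicate block called 5 members in EIF4A1 KO footprints and 1 in EIF4A2 KO footprints, 3 relative to mRNA and 7 for siControl recovery against none, the added one being HSP90AA1 (adjusted p = 0.0102). With 2 libraries a group and no label tying their numbers, the numbers were not taken to pair samples. The correlation of deviations ran from -0.19 to 0.60 over pairs of groups: it was -0.11 in RNA-seq, 0.14 between naive RNA and footprints, 0.13 between SBP-eIF4A2 input and pulldown, 0.23 between SBP-eIF4A1 and siControl inputs and 0.59 between siControl input and pulldown. In RNA-seq a crossed replicate block called 9891 RNA transcripts against 8991 uncrossed and 9395 without. No paired analysis was possible for PP242 because the treated libraries carry no numbers, and the siRNA block leaves out the siLARP1 pulldown.

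Over all transcripts, counts moved by over 1.5 times when all distinct transcripts were tested (26611 for RNA, 13443 and 4696 for EIF4A1 KO and EIF4A2 KO footprints, 7223 relative to mRNA, 6342, 3739 and 7791 for PP242 in naive, EIF4A1 KO and EIF4A2 KO cells, 42029, 44799 and 37604 for the SBP-eIF4A1, SBP-eIF4A2 and siControl pulldowns, 13212 between the tagged proteins and 36861 for siControl recovery against none) and under the Wald test (5443 for RNA, 2218 and 526 for footprints, 1144, 749 and 1436 for PP242). For the responses of EIF4A1 KO against naive and against EIF4A2 KO the counts were 3684 and 3762 with all distinct transcripts, 676 and 739 by Wald and 2 and 1 by dose score. The 14 for EIF4A2 KO against naive became 56 with all distinct transcripts, 28 with no filter, 9 by Wald and 0 by dose score. In the siLARP1 inputs the Wald test called 370 transcripts, no low-count filter 410, all distinct transcripts 618 and the replicate block 24. With 1 library left out, the footprint counts ran from 2567 (without EIF4A1 KO DMSO replicate 1) to 3874 for EIF4A1 KO, from 787 (without naive DMSO replicate 2) to 1212 for EIF4A2 KO and from 1513 (without EIF4A1 KO DMSO replicate 1) to 2472 relative to mRNA. For PP242 they ran from 868 (without the 1 µM library) to 1454 in naive cells, from 444 (without DMSO replicate 1) to 991 in EIF4A1 KO and from 1471 (without the 1 µM library) to 1704 in EIF4A2 KO. For the responses they ran from 646 to 1374 for EIF4A1 KO against naive and from 585 to 1276 against EIF4A2 KO, lowest without EIF4A1 KO DMSO replicate 1 in both, and from 4 (without naive 10 µM) to 40 (without naive 1 µM) for EIF4A2 KO against naive. They ran from 2378 (without SBP-eIF4A1 input replicate 1) to 7838 (without SBP-eIF4A2 pulldown replicate 1) between the tagged proteins and from 18 (without siControl input replicate 2) to 141 in the siLARP1 inputs. Without the library labelled siLARP1 input replicate 2 the last was 19. With 1 library per dose and 2 per group, changes near the size of the spread were not detectable.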
